A study of Dunaliella tertiolecta UTEX 'LB 999' with 2 samples.

Results

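Transcripts of the DNA replication fork and of cytidine deamination were examined in the green alga Dunaliella tertiolecta at 4 h and 8 h after a rise in light. The set was defined by name among the contigs, the assembled transcripts, that the authors listed as different between these times. It took contigs with the symbol RPA70B, MCM5, RFC3 or CDD1 and any contig whose protein description contained GINS. Each symbol was carried by 1 contig and no description contained GINS, so the set held 4 of 234 listed contigs. All 4 were in the list of 100 contigs lower at 8 h and none in the list of 134 higher contigs. Contigs were named after their closest protein in the alga Chlamydomonas reinhardtii. The authors' E values of these hits were 0 for MCM5 and RFC3, 4e-97 for RPA70B and 8e-75 for CDD1, and no other listed contig had the same best hit as a member.

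Both cultures were strain UTEX LB-999, with no genetic change given in the labels, grown in a chemostat at 25 °C in medium with 0.5 M NaCl. The photon flux was 40 µmol m-2 s-1 until steady state and 400 µmol m-2 s-1 afterwards, so both the 4 h and the 8 h library came from cells in the higher light. A sample from before the shift was not analysed here. There was 1 mRNA library per time point, so no difference below has a replicate check.

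At an origin of replication, the MCM proteins form the ring-shaped helicase that parts the DNA strands, and the GINS complex joins it in the active helicase. Replication protein A coats the single strands this exposes, and replication factor C opens the sliding clamp PCNA and places it on DNA so that polymerases stay attached. Cytidine deaminase turns cytidine into uridine and so feeds the salvage of pyrimidines. In Chlamydomonas, transcripts of the replication machinery rise and fall together with the rounds of DNA synthesis and division.

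Levels are given as the authors' means in RPKM, that is, reads divided by contig length and by library size. The library sizes were 674129 reads at 8 h and 556037 at 4 h, as the values imply. All 4 contigs stood lower at 8 h than at 4 h, and together they held 59 reads at 8 h against 126 at 4 h after rounding. Divided by library size, that was a level 2.58-fold lower at 8 h (95% exact interval on reads 1.89 to 3.59). Intervals cover counting error only and compare the 2 libraries, not the conditions. The authors had already selected these contigs for a fold of at least 2, and each member also had a p under 0.05 in their deposited table. The folds and their intervals are therefore not independent evidence of a difference, and the folds may be too large. In bulk RNA, fewer cells in DNA synthesis and less of these transcripts per cell cannot be told apart.

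**Figure D1:**
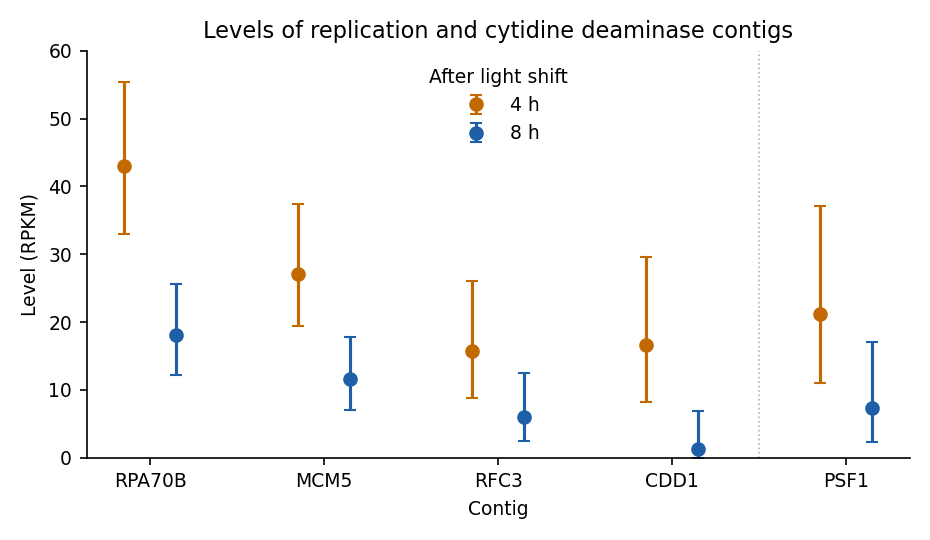
Level in RPKM of each contig at 4 h (orange) and 8 h (blue) after the light shift, 1 library per time point, with 95% exact Poisson intervals on the reads. RPA70B was highest at both times (43.1 and 18.1 RPKM) and CDD1 lowest at 8 h (1.24 RPKM). PSF1, right of the dotted line, lay outside the naming rule.

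RPA70B resembles the large subunit of replication protein A, and the deposited description calls it a protein related to replication factor A protein 1. It stood at 43.1 RPKM at 4 h (95% exact Poisson interval 32.9 to 55.3) and 18.1 RPKM at 8 h (12.3 to 25.6). These levels rested on 61.0 and 31.0 reads, the most of any member, and their intervals did not overlap. The 4 h reads of RPA70B, 60.97, were fractional, so some were shared with other contigs. Its level was 2.38-fold lower at 8 h (interval 1.52 to 3.80). RPA70B was also the best expressed member, 19th of the 100 lower contigs by level at both times. In the authors' deposited table it was the 1 member with a step-up FDR under 0.05, at 0.0237. Of all 234 listed contigs, 33 were lower with such an FDR (14.1%).

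MCM5, a subunit of the replicative helicase, stood at 27.1 RPKM at 4 h (19.5 to 37.4) and 11.6 RPKM at 8 h (7.07 to 17.9). Its reads numbered 38.6 and 20, and the intervals of the levels did not overlap. Its level was 2.34-fold lower at 8 h (1.35 to 4.28). The FDR in the authors' deposited table was 0.118. The contig's name marks it as 1 of 2 transcripts assembled at its locus, with an assembly confidence of 0.875, whereas the other members were the sole transcript of theirs. The 4 h reads were fractional, so some were shared with other contigs, while the 8 h reads were whole.

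RFC3 is named as a small subunit of the clamp loader. Its deposited description says no more than an ATPase of the AAA family, so the link to replication rests on the symbol. It stood at 15.8 RPKM at 4 h (8.82 to 26) and 6.07 RPKM at 8 h (2.44 to 12.5), on 15 and 7 reads. Its level was 2.60-fold lower at 8 h, but the interval of the fold (0.997 to 7.53) just included equal levels and the intervals of the levels overlapped. The FDR in the authors' deposited table was 0.234.

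CDD1, the cytidine deaminase, stood at 16.6 RPKM at 4 h (8.27 to 29.6) and 1.24 RPKM at 8 h (0.0315 to 6.92). The 8 h level was a single read, and the 4 h level was 11 reads. On this contig of 1194 bases 1 read was worth 1.24 RPKM at 8 h. Its level was 13.3-fold lower at 8 h (1.94 to 574), the third largest fold in the lower list. The FDR in the authors' deposited table was 0.0538.

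For 3 of the 4 contigs, all but RFC3, the interval of the fold lay wholly on the lower side. That was so for 55 of all 234 listed contigs (23.5%), and 42.7% of the listed contigs were lower at all. Since the members were named from lists already known, nothing is read from their counts against these shares. The median log2 ratio of 8 h over 4 h was -1.32 over the 4 members, against -1.42 over the 100 lower contigs and 1.14 over all 234.

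The 3 fork contigs had folds close to each other, between 2.34 and 2.60, all a little under the median of 2.67 in the lower list. The list holds only folds of at least 2, so this closeness is not read as a trait of the fork contigs. In that list they ranked 58.5 (RFC3, tied), 74 (RPA70B) and 75 (MCM5) by size of fold. Pooled without CDD1, the 3 fork contigs held 58 reads at 8 h and 115 at 4 h, and were 2.39-fold lower (1.74 to 3.36). The fold of CDD1 was far larger, but its interval contained this pooled value, so these reads do not separate CDD1 from the fork contigs. CDD1 gave 1.70% of the members' reads at 8 h and 8.76% at 4 h, so the pooled fold was mostly that of RPA70B and MCM5.

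**Figure D2:**
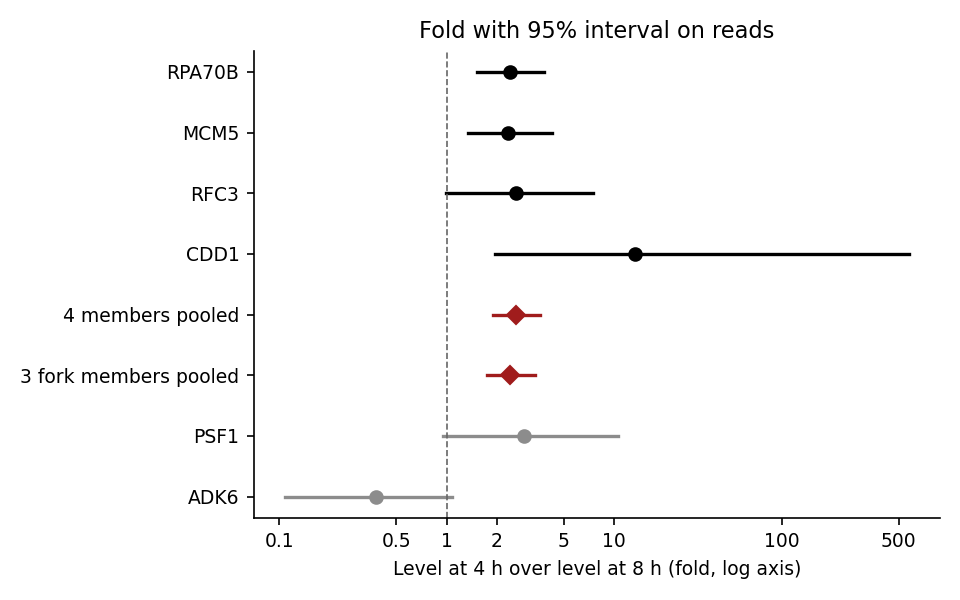
Fold of the 4 h level over the 8 h level (log axis) with 95% exact intervals on reads, so that values right of the dashed line were lower at 8 h. Black marks the 4 members, red the pooled reads and grey 2 contigs outside the set. The fork members lay between 2.34 and 2.60, CDD1 at 13.3 had the widest interval, and ADK6 lay on the other side.

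By level, the order at 4 h was RPA70B, MCM5, CDD1 and RFC3, and at 8 h RPA70B, MCM5, RFC3 and CDD1. Since RPKM is per length, contigs can be set beside each other. RPA70B stood 1.59 times as high as MCM5 at 4 h (interval 1.04 to 2.42) and 1.56 times at 8 h (0.861 to 2.89). MCM5 stood 1.63 times as high as CDD1 at 4 h (0.830 to 3.58), and CDD1 1.05 times as high as RFC3 (0.437 to 2.45). At 8 h MCM5 stood 1.91 times as high as RFC3 (0.775 to 5.34), and RFC3 4.88 times as high as CDD1 (0.628 to 220.2). RPA70B over MCM5 at 4 h was thus the 1 pair of neighbours in the order that differed beyond counting error.

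The contigs differed in how firmly they were measured. RPA70B and MCM5, at 2547 and 2563 bases, were among the 18 listed contigs over 2500 bases. For them 1 read was worth 0.582 and 0.579 RPKM at 8 h, so a given RPKM rested on more reads than on the shorter RFC3 (1711 bases) and CDD1. The p-values in the authors' deposited table, 0.00194 for RPA70B, 0.0156 for MCM5, 0.0457 for RFC3 and 0.00536 for CDD1, differed by at most 0.0293% from those of a Wald test run on the RPKM values as if they were Poisson counts. Such a p takes no account of how many reads lie behind a level. CDD1 had a smaller p than MCM5 in that table, on 12 reads in the 2 libraries against 58.6.

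**Figure D3:**
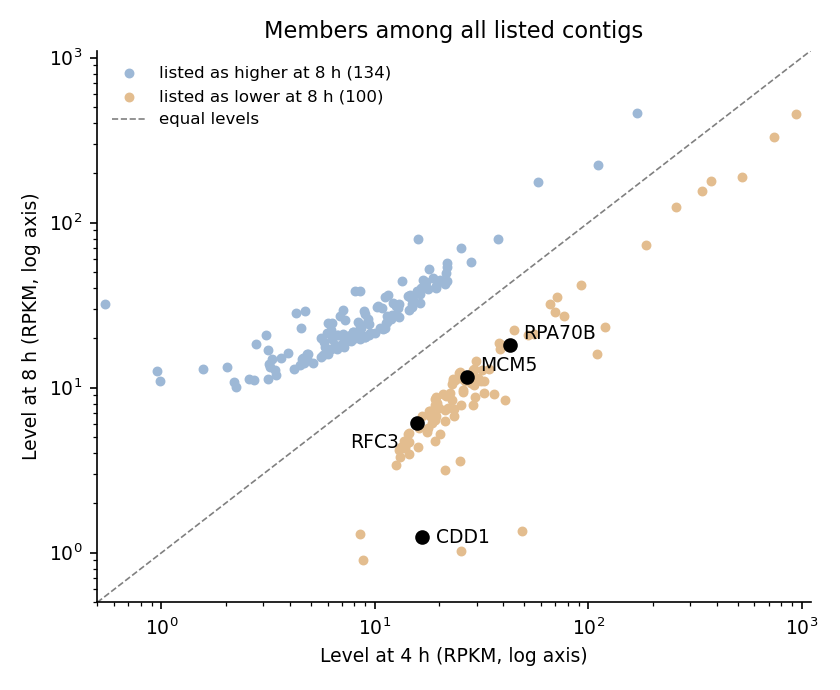
Level at 8 h against level at 4 h in RPKM (log axes) for the 134 contigs listed as higher (blue) and the 100 listed as lower (orange), with the 4 members in black and equal levels dashed. RPA70B, MCM5 and RFC3 lay within the band of lower contigs, and CDD1, at 1.24 RPKM, was among the few lower contigs beneath it, 98th of 100 by level at 8 h.

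Other contigs of the same processes were sought by keywords. The DNA replication wording matched RPA70B and MCM5 alone, and RFC3 was missed because of its description. A further contig carried no symbol but was described as the partner of SLD5 that is known as PSF1, a GINS subunit. It did not meet the naming rule, which asks for the letters GINS, and was singled out after its values were seen. PSF1 stood at 21.2 RPKM at 4 h and 7.29 RPKM at 8 h on 12 and 5 reads, 2.91-fold lower (0.954 to 10.5), so its interval too included equal levels. With PSF1 added, the pooled fold of the then 5 contigs was 2.61 (1.93 to 3.57).

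The nucleotide metabolism wording matched 6 contigs, 5 lower and 1 higher, with a median log2 ratio of -1.58. Over all 234 listed contigs, 42.7% were lower and the median was 1.14. Of the 5 lower matches, 4 were P-loop nucleoside triphosphate hydrolases, a broad superfamily matched by the word nucleoside, with folds from 2.42 to 3.64. That left CDD1 and the higher contig, ADK6, an adenosine kinase, which returns adenosine to the nucleotide pool. ADK6 went from 7.01 RPKM at 4 h to 18.5 RPKM at 8 h on 5 and 16 reads, 2.64-fold higher with an interval (0.924 to 9.21) that included equal levels. The enzymes of nucleotide breakdown were found by reading the lists after their values were seen. An allantoate amidohydrolase, of purine breakdown, was 3.57-fold higher on 13 reads against 3 (0.982 to 19.6). A SurE-like phosphatase and nucleotidase was 2.67-fold lower on 5 against 11 (0.854 to 9.79). CDD1 and the SurE-like contig thus stood lower and ADK6 and the allantoate amidohydrolase higher, all on few reads. Of these, only CDD1 had an interval that excluded equal levels.

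Core histones, which package newly made DNA, and the 4 cell division contigs matched by keywords were also listed as lower. The word histone matched 10 contigs, 9 lower and 1 higher, where 42.7% of all listed contigs were lower. Pooled, the 10 were 2.21-fold lower (1.97 to 2.47). ASF1 and the higher contig, a histone deacetylase 15, are not core histones. The 8 core histone contigs pooled were 2.31-fold lower (2.06 to 2.60), although their reads are shared among copies. The cell division wording matched 4 contigs, which pooled were 3.02-fold lower (2.17 to 4.26). One of these, MIND1, acts in the division of plastids, and without it the pooled fold was 2.85 (1.97 to 4.17). The cell division wording missed a microtubule-associated protein 65-8 contig, which was 3.15-fold higher (1.90 to 5.29). It also missed a targeting protein for XKLP2 contig, which was 3.15-fold lower (1.05 to 11.3). Both were named after their values were seen and were not pooled. The intervals of the histones and of the pooled cell division contigs overlapped that of the 4 members (1.89 to 3.59). A difference between the sets was not tested. The core histone and pooled cell division contigs were also selected for a fold of at least 2, so nothing is read from this overlap. ASF1, a chaperone that delivers histones behind the fork, was matched by the word histone but named singly after its values were seen. It stood 3.03-fold lower on 4 reads against 10 (0.874 to 13.2). Other contigs with names touching chromatin or DNA were listed on both sides, and these too were named after their values were seen. The histone deacetylase 15 contig was 2.00-fold higher (0.948 to 4.16) and a nucleic acid-binding OB-fold-like protein 2.20-fold higher (0.818 to 6.86), both with intervals that included equal levels. A transcriptional regulator described as binding single-stranded DNA was 2.10-fold higher (1.16 to 4.03). On the lower side, a contig described as methyltransferase 1 was 2.51-fold lower (1.52 to 4.30). A DEK domain chromatin protein was 3.33-fold lower (0.988 to 14.4) and chromatin remodeling 1 was 2.91-fold lower (0.954 to 10.5). The intervals of the DEK domain and chromatin remodeling contigs included equal levels.

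The annotated contig outside the set nearest to each member was found by distance on log2 RPKM at both times, among 186 contigs. It was LSM2, a protein of RNA processing, for RPA70B at a distance of 0.12, MTP1, a metal transporter, for MCM5 at 0.09, and SYP1, a syntaxin of membrane fusion, for RFC3 at 0.03. For CDD1 the nearest was a contig described as RNA-binding protein-defense related 1, at 0.67. LSM2, MTP1 and SYP1 had 9, 10 and 11 reads at 4 h and 5 each at 8 h, and their fold intervals included equal levels. The contig nearest to CDD1 had 14.9 reads at 4 h and 0.731 at 8 h. With 2 libraries, this likeness is over 2 values per contig.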

How the data were processed

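Stranded mRNA libraries were sequenced from 1 culture sample at 4 h and 1 at 8 h after the light shift, as the labels' protocols state. Partek was used, per the submitters' processing notes. The aligner, the assembler and the reference sequence were not given in the sources used here. Contigs outside the 2 deposited lists were not analysed here. The authors' deposited means are RPKM, under headings that name neither sample. The first was taken as 8 h because the contrast reads 8 vs 4 and the deposited ratio, whose natural log is also deposited, divides it by the second. The authors' deposited table also holds a signed fold score, p-values with a step-up FDR, and estimated counts (raw totals and maxima over all libraries of their model).

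Reads were recovered as RPKM times contig length times library size. The library size was the median, over contigs, of the size that the raw maximum implies, which 231 of 234 rows matched within 0.01%. Fractional reads (2 of 4 members had fractional raw totals) were rounded for intervals. Fold intervals are derived from the 8 h share of each contig's reads by the 95% Clopper-Pearson method, and their coverage was tested on simulated data. The simulation did not select contigs by fold or p, so coverage for contigs selected as the listed ones were was not tested. No test between the conditions was made, as each time point has 1 library. The intervals compare the 2 libraries, and a Wald test served to trace the p-values in the authors' deposited table. Named genes were the members, the contigs matched by the replication and nucleotide keywords, and each member's nearest contig, and those named after their values were seen are marked. The result of 1 further keyword list is not reported here. Members and lists were chosen with earlier results of these data known. Calculations used scipy 1.17.1, pandas 2.3.3 and numpy 2.4.6 under Python 3.11.15, and figures matplotlib 3.10.9.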

Additional observations from a re-analysis of the deposited data

Results flagged for a closer look

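The raw totals of RPA70B and MCM5 exceeded the sum of their 4 h and 8 h reads. The excess was 4.99 reads for RPA70B and 5 for MCM5, above the limit of 3 reads used here for flagging. It was 3 reads for CDD1 and 2 for RFC3. Over the 4 members 15.0 of 199.5 raw reads (7.51%) belonged to neither library, against 20.7% over the lower list. The labels used here describe no further library from which they came.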

How the results depend on the processing

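Of 44 alternative values for the member folds, their intervals, the pooled fold and the keyword counts, 40 stayed within the main interval, on the same side of equal levels or close to the main count. None changed direction. The pooled fold of 2.58 became 3.73 as a geometric mean, where CDD1 weighs as much as RPA70B, and 3.94 (1.73 to 10.1) over CDD1 and RFC3, the 2 members with whole raw totals. Leaving out 1 member at a time gave 2.39 to 2.80. With 1 RPKM added to both levels, the fold of CDD1 was 7.83. Read by hand, the DNA replication list held 4 lower contigs in place of 2. Without the P-loop wording, the nucleotide list held 1 lower contig in place of 5. The additions by hand, PSF1 and a scaling to the reads of the listed contigs were chosen after seeing the data. At 99% confidence the intervals of RPA70B, MCM5 and CDD1 still lay on the lower side, as for 15.4% of all listed contigs, with bounds nearest to equal levels of 1.34, 1.15 and 1.33. Depth limits RFC3, PSF1 and CDD1 most, at 7, 5 and 1 reads at 8 h. No paired analysis was possible because each time point has 1 library.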

Other observations

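The excess reads were split between 2 further libraries, in an analysis chosen after the values were seen. In 23 listed contigs the excess was 1 read, and the excess RPKM of such a contig gives the size of the library that held it. The sizes took 2 values, between 178788 and 178830 reads in 16 contigs and between 241455 and 241512 in 7. With the medians, 178809 and 241502 reads, the excess in reads and in RPKM was split between 2 libraries of these sizes. In all 161 contigs with whole raw totals both shares came out whole, within 0.05 reads. These include contigs with no excess or an excess of 1 read, for which whole shares follow from the method. The contigs with a larger excess were not counted apart.

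On this split, RPA70B had 3.99 reads in the smaller of the further libraries and 1 in the larger, or 8.76 and 1.63 RPKM. MCM5 had 2 and 3 reads, or 4.36 and 4.85 RPKM. RFC3 had 2 reads in the smaller and none in the larger, or 6.54 RPKM in the smaller, where 1 read was worth 3.27 RPKM. CDD1 had 2 and 1 reads, or 9.37 and 3.47 RPKM. The labels used here put these libraries in no group, so their levels are not set against those at 4 h and 8 h.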
